A study of Mus musculus with 6 samples.

Results

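The genes of the proteasome were examined in 10T1/2, an established fibroblast line from mouse embryos. They were taken from the annotation of the arrays as every probe set that named a single gene with a symbol starting with Psma to Psmg and a digit. This gave 49 genes of the 18194 measured, with 85 probe sets on the MOE430A array and 21 on MOE430B. Of the 49 genes, 47 code for subunits, caps, assembly factors or an inhibitor of the proteasome, and all counts below are over these 47. The other 2 share only the symbol: Psmc3ip, a meiotic recombination factor, and Psme3ip1, a binding partner of Psme3. Psme2 had no probe set that named it alone and was not analysed here. The samples formed 1 untreated group of 3, numbered 1, 4 and 5, grown in DMEM with 10% fetal bovine serum and harvested at 80% confluency, and each was hybridised to 1 array of each design. Whether the samples came from separate cultures is not in the labels, and their spread may therefore be technical. With 1 group and 1 array per sample and design, no test between samples was possible, and no p-value is given.

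The proteasome is the barrel-shaped protease that degrades proteins tagged with ubiquitin. Its 20S core is built of alpha subunits, which form the outer rings and the gate, and beta subunits, which carry the active sites. The 19S cap has a base with a ring of ATPases that unfold the substrate and a lid that removes ubiquitin. Interferon induces replacement catalytic subunits, which give the immunoproteasome, whose cut peptides are favoured for antigen presentation. In most dividing cells the standard subunits are made constantly, and the transcription factor Nfe2l1 raises them together when proteasome activity falls short.

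The cells gave strong signals for most standard core and cap genes and none above background for the catalytic genes of the immunoproteasome. A gene was called detected when a probe set exceeded, on 3 of 3 arrays, the 95th percentile of genes restricted to distant tissues. By this rule 30 of 47 proteasome genes were detected, or 63.8%, against 21.1% of all measured genes. The latter share pools both designs. On MOE430A alone 30 of 46 proteasome genes were detected, against 3282 of all 12394 genes. By group, 6 of 8 alpha genes, 7 of 7 standard beta genes, 7 of 9 genes of the cap base and 6 of 8 of the lid were detected. In the remaining groups the counts were 2 of 3 genes of other caps, 2 of 8 assembly and inhibitor genes and 0 of 4 immunoproteasome genes. The last group includes Psmb11 of thymic epithelium. On MOE430A the limit was 1388 in sample 1, 1602 in sample 4 and 948 in sample 5. A second limit, from receptor, defensin, hair and urinary protein genes and chosen after seeing the data, was lower, at 915, 783 and 735. It gave 36 of 47 proteasome genes detected, against 32.7% of all genes, and still 0 of 4 immunoproteasome genes. On MOE430A alone the second limit gave 36 of 46 proteasome genes and 4800 of all 12394 genes. The plot of signals by gene shows the 46 genes on MOE430A.

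**Figure D1:**
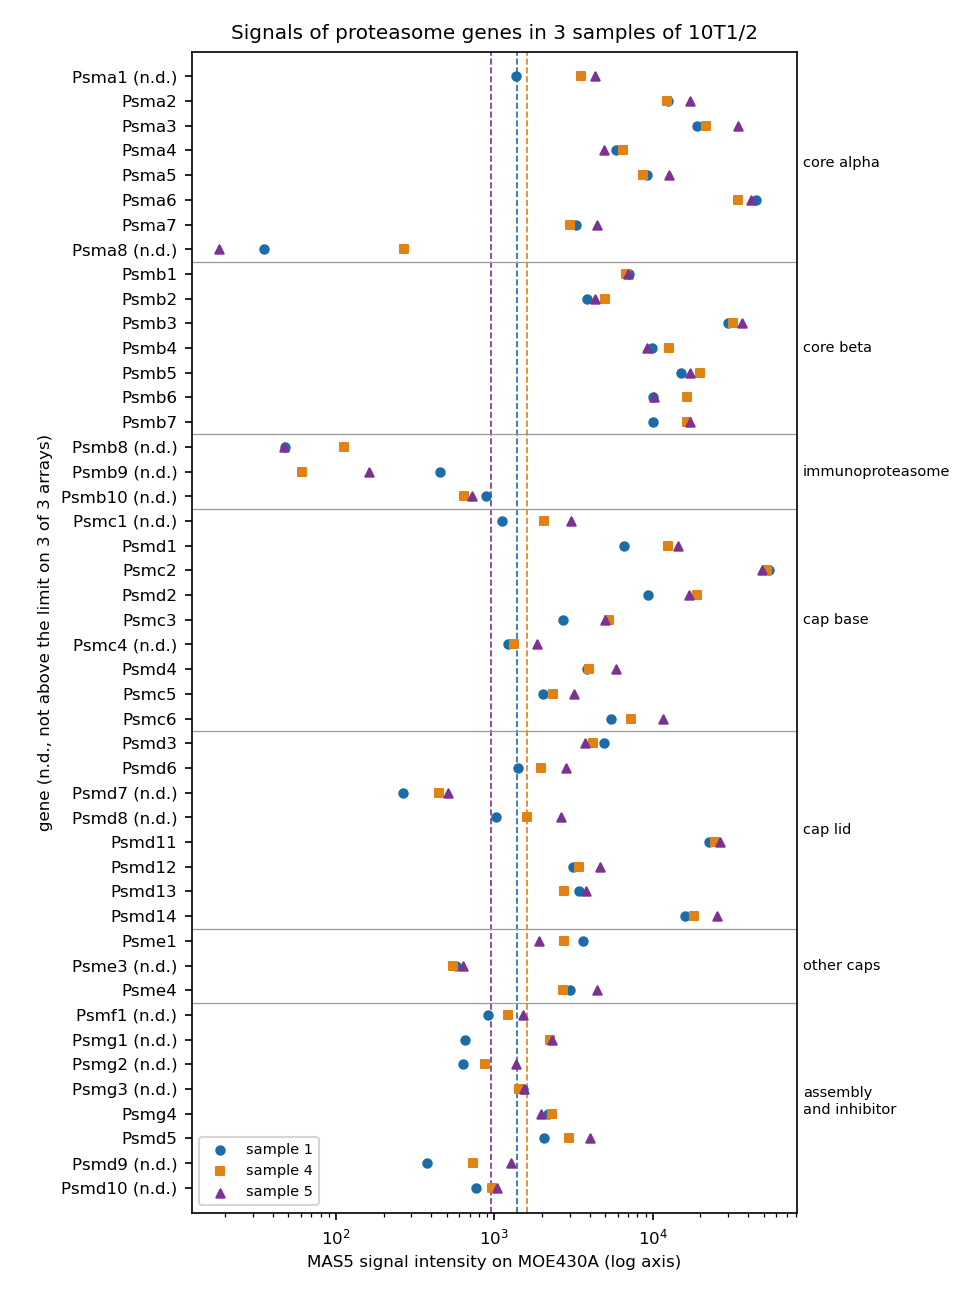
MAS5 signal intensity (log axis) of the 46 proteasome genes on MOE430A, by their representative probe set, in samples 1, 4 and 5, with each sample's limit as a dashed line of its colour. Standard core and cap genes lie mostly above the 3 limits, and Psmb8, Psmb9 and Psmb10 lie below them in all 3 samples.

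Of the whole series, the fibroblast label was checked against 10 markers, of which 9 were detected, and Thy1 was not. Of leukocyte markers 1 of 9 was detected (Cd14, while the defining marker Ptprc was not), of endothelial 0 of 5 and of epithelial 1 of 5 (Epcam). The summed signal of the fibroblast markers on MOE430A was 501997, 561300.0 and 262423 in samples 1, 4 and 5, so it was lowest in sample 5. That of the leukocyte markers was 7739, 8285 and 9403. The ratio of 3' to 5' probe sets of Gapdh, a measure of how complete the labelled RNA was, read 24.7, 15.0 and 10.6 on MOE430A in the same order. Beta-actin read 17.5, 9.57 and 8.68. In every sample the 3' probe sets thus read far above the 5' ones. The part of this in the detection calls was not tested. Fluidics station 2 ran the MOE430A array of sample 5, and station 1 the other 5 arrays.

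Each catalytic site of the standard core was represented by a strong signal. Psmb5, the subunit with chymotrypsin-like activity, read 15143, 19914 and 17184 in samples 1, 4 and 5 (17414 ± 2393, mean ± SD, n = 3). Psmb6, which cuts after acidic residues, read 10088, 16537 and 10175, and Psmb7, which cuts after basic residues, read 9993, 16512 and 17296. All 9 values lay above the limit of their array. Psmb6 was high in sample 4 alone, whereas Psmb7 was low in sample 1 alone.

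The interferon-induced counterparts stayed under the limit on every array. Psmb8, which takes the place of Psmb5, read 47.9, 113 and 47.1 on MOE430A, and its MOE430B probe set read 712, 278 and 78.8. Psmb9, the counterpart of Psmb6, read 453, 61.4 and 161, and Psmb10, that of Psmb7, read 885, 645 and 719. Psmb10 came nearest to the limit, and its 3 values differed by no more than 1.37-fold. Psmb11, the beta subunit of thymic epithelium, was counted with this group and measured on MOE430B only. It read 215, 599 and 251, against main limits of 5466, 4424 and 6855 and second limits of 2798, 2678 and 3974. The main limit on that design rested on 2 probe sets. Each of the 4 genes had 1 or more probe sets and none was above either limit on any array, which does not show that the transcripts were absent. The plot of catalytic genes sets each pair side by side. Levels of different probe sets are not comparable as amounts, so only the position of each against the limit is read from it.

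**Figure D2:**
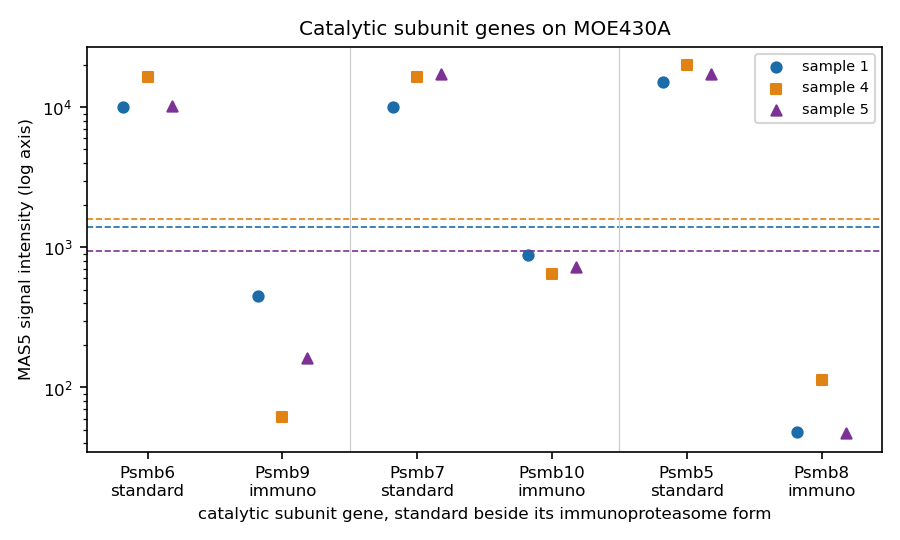
MAS5 signal intensity (log axis) on MOE430A of the 3 standard catalytic genes, each beside its immunoproteasome form, in samples 1, 4 and 5, with the limit of each sample dashed. Psmb5, Psmb6 and Psmb7 lie between 9993 and 19914, and Psmb8, Psmb9 and Psmb10 lie between 47.1 and 885, below every limit.

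Promoters of 4 of these genes are shown as examples, because the standard and induced forms are known to be regulated by different factors. The 100 bases before the RefSeq start site on GRCm38.p6 are given for each, with matches to 4 motifs in capitals: the antioxidant response element core TGACNNNGC, to which Nfe2l1 and Nfe2l2 bind, the CCAAT box CCAAT, the interferon-stimulated response element core (GAAA, any 2 bases, GAAA) and the gamma-activated site TTCNNNGAA. Each motif was searched on both strands. The windows are Psmb5 at chr14:54617996-54618095 (minus strand), Psmb6 at chr11:70525257-70525356 (plus), Psmb8 at chr17:34198095-34198194 (plus) and Psmb9 at chr17:34187331-34187430 (minus).
Psmb5: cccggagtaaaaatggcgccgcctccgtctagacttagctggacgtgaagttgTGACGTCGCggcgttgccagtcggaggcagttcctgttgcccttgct
Psmb6: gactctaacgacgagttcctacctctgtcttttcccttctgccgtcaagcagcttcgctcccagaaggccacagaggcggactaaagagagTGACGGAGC
Psmb8: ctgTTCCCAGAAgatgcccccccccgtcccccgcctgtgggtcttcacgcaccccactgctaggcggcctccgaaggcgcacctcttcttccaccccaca
Psmb9: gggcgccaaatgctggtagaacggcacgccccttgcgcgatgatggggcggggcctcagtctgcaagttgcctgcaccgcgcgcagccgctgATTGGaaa
The antioxidant core starts 47 bases before the start site in Psmb5 and 9 bases before it in Psmb6, and no match was in the windows of Psmb8 or Psmb9. Psmb8 had a gamma-activated site match 97 bases before the start. Over the whole window, from 250 bases before to 50 after the start, 6 of 39 proteasome genes with a listed promoter held the antioxidant core, or 15.4%, against 13.99% of 27025 genes, so the motif was about as frequent as in promoters at large. Of the 11 genes of the 20S core with a listed promoter, 2 held the antioxidant core, and these were Psmb5 and Psmb6, shown above. Of the 4 immunoproteasome genes 0 held it. Promoters not shown include that of Psmb10, with no match to any motif searched, and that of Psmb11, with a CCAAT match only. The gamma-activated site was in 3 of 39, or 7.69%, against 9.55%. The interferon element was in 5 of 39, or 12.8%, against 3.99%, and these 5 were Psmb3, Psmd4, Psme1, Psmg4 and Psmd9, none of them an immunoproteasome gene. A match is a description of the letters and not of a bound site.

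Alpha subunits of the core were detected in 6 of 8 cases. Of the 6, 4 were highest in sample 5, where 31.5% of all detected genes of MOE430A were. Psma3 read 18960.4, 21787 and 34743 in samples 1, 4 and 5, the largest range among the detected alpha genes, 1.83-fold. Psma7 read 3273, 3013 and 4447, Psma2 12440.3, 12247 and 17080.3, and Psma5 9196, 8617 and 12684. By these probe sets samples 1 and 4 lay close together and sample 5 above both. The second detected probe set of Psma5 gave the same order, at 5070 (5069.7), 4245 and 6851. That of Psma7 did not: it read 1832, 2974 and 3317, with samples 4 and 5 together and sample 1 apart. Psma4 ran the other way, with 5843, 6482 and 4909, and was lowest in sample 5.

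Psma6 had probe sets that disagreed. Its brightest, which can match several transcripts, read 44889, 34368 and 41845, and a second detected probe set read 4069, 5688 and 8080 (8079.7), in the order 1, 4, 5. The 2 other probe sets of the gene stayed below the limit on all arrays. The alpha genes not detected were Psma1 and Psma8. Psma8, the testis form of an alpha subunit, read 35.1, 271 and 18.4. Psma1 read 1373, 3527 and 4306, and so missed the limit in sample 1 by little and passed it in the others.

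The standard beta genes were all detected and had the lowest median spread of the groups. Their median SD over the 3 samples was 0.20 on the log2 scale, against 0.35 over all 3282 detected genes of MOE430A. Psmb1 was the most even by its brightest probe set, at 7032, 6822 and 6969 (6941 ± 108, SD, n = 3). Its second detected probe set had a wider range, 1.30-fold, at 1491, 1604 and 1235. Psmb2 read 3830.3, 4980.1 and 4336. Psmb3 read 29922, 32113 and 36825, and its second probe set read 2224, 3214 and 3841. Both probe sets of Psmb3 gave the samples in the same order. Psmb4 read 9950.0, 12696 and 9235 by one probe set and 7270 (7269.8), 6167 and 8704 by another, so its highest sample depended on the probe set. Over the group, 5 of 7 genes were lowest in sample 1, where 32.2% of all detected genes of MOE430A were. Highest in sample 4 were 4 of 7, and 1046 of all 3282.

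The base of the cap showed the widest differences between samples. Its 7 detected genes had a median SD of 0.53 (log2). Of the 7, 6 were lowest in sample 1, where 32.2% of all detected genes of MOE430A were. A deviation is the log2 signal of 1 sample minus the mean log2 signal of the other 2. Its median in sample 1 was -0.75, or 1.69-fold lower, and in sample 5 it was 0.56. Psmd1, a large scaffold subunit of the base, read 6618, 12551 and 14336, which is 2.17-fold higher in sample 5 than in sample 1. The scaffold gene Psmd2 read 9347, 18901 and 16895, and the ATPase gene Psmc3 read 2714, 5259 and 5000 (5000.1). In these 3 genes samples 4 and 5 lay together and sample 1 apart. The ATPase gene Psmc6 read 5449.85, 7296 and 11592, which is 2.13-fold higher in sample 5 than in sample 1. The other detected probe set of Psmc6, which can match several transcripts, read 2244, 1988 and 2876, only 1.28-fold higher in sample 5 than in sample 1 and lowest in sample 4.

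The remaining genes of the base were more even or near the limit. Psmd4, the ubiquitin receptor of the base, read 3871, 3983 and 5836, and 1 of its 3 probe sets was detected. The ATPase gene Psmc5 read 2016, 2343 and 3205. Psmc2 was the most even by its brightest probe set, which can match several transcripts, at 54382, 52785 and 49094. Its other detected probe set, with a name that does not mark several transcripts, read 7716, 12468 and 12674 and was low in sample 1 like the rest of the group. The 2 genes not detected, Psmc1 and Psmc4, are ATPases of the same ring. Psmc1 read 1124, 2047 and 3028, and Psmc4 1216, 1334 and 1860 (1859.8), each above the limit in sample 5 and below it in sample 1.

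Lid genes were detected in 6 of 8 cases. Of the 6, 5 were highest in sample 5, where 31.5% of all detected genes of MOE430A were. Psmd14, the enzyme that cuts ubiquitin chains from the substrate, read 15877, 18301 and 25372. Psmd6 read 1416, 1967 and 2843, the largest range among the detected lid genes, 2.01-fold, and Psmd12 read 3132, 3409 and 4616. Each of these 3 gave the order 1, 4, 5. Psmd3 was the exception, with 4922, 4176 and 3751, lowest in sample 5. Psmd11 was the most even by its brightest probe set, which can match several transcripts, at 22687, 24762 and 26488. Of its 8 probe sets, 2 others were detected. One read 6551, 5894 and 9909, a 1.68-fold range with sample 4 lowest, and the other read 3748, 3984 and 4838. Psmd13 read 3408, 2764 and 3782 by one detected probe set and 2137, 2355 and 2307 by another, so its order of samples depended on the probe set. Psmd7, the lid partner of Psmd14, was not detected by any of its 3 probe sets, and the brightest read 265, 445 and 509. Psmd8 read 1024, 1616 and 2652, below the limit in sample 1 and above it in the others.

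The caps other than 19S split. Psme1, a subunit of the interferon-induced 11S cap, read 3612, 2768 and 1914 and was detected, with sample 5 the lowest. It was the single detected proteasome gene 1.5-fold or more lower in sample 5 and also the single one 1.5-fold or more higher in sample 1. Psme4, a large activator of the nucleus, read 2995, 2732 and 4458 by a probe set that can match several transcripts, the only detected of its 6. Psme3, the nuclear relative of Psme1, was not detected, with 574, 550 (549.7) and 634 by its brightest of 3 probe sets on the mean log2 scale. Another probe set of Psme3 passed the limit in sample 5 only, at 1033.

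Most assembly factors lay below the limit in at least 1 sample, with 2 of 8 detected. Psmd5, a chaperone of the base, read 2071, 2948 and 3989, and Psmg4, a chaperone of the alpha ring, read 2188, 2296 and 1961. The first gave the order 1, 4, 5 and the second was lowest in sample 5. The alpha ring chaperone Psmg1 read 656, 2256 and 2327, above the limit in samples 4 and 5. Its partner Psmg2 read 637, 874 and 1367. Psmg3 read 1515, 1428 and 1529, and was above the limit in samples 1 and 5. The base chaperones Psmd9, at 377, 731 and 1279.99, and Psmd10, at 768, 971 and 1041, passed the limit in sample 5 only. The inhibitor gene Psmf1, at 916, 1223 and 1514, did the same. In all, 10 of the 17 genes not detected were above the limit in sample 5, 4 in sample 4 and 1 in sample 1, and the limit itself was lowest in sample 5.

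Across the samples, proteasome genes were on the whole lowest in sample 1 and highest in sample 5. Because a filter on detection favours some patterns, all 46 genes on MOE430A were taken first, by their brightest probe set whether detected or not. Here 27 of 46 were lowest in sample 1, or 58.7%, where 30.4% of all genes were, and 29 of 46 were highest in sample 5, or 63.0%, where 29% of all genes were. The median deviation of sample 1 was -0.35 (log2), 1.28-fold lower, and that of sample 5 was 0.42, 1.33-fold higher. Over all 12394 genes these medians were 0.11 and -0.11, of the opposite sign. Sample 4 lay between, with a median of -0.01 against 0.05.

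Among the 30 detected genes, 17 were lowest in sample 1, where 32.2% of all detected genes were, and 17 were highest in sample 5, where 31.5% were. The order 1, 4, 5 from low to high was found in 12 of 30, or 40.0%, against 19.5% of detected genes, and the reverse order in 3 of 30, or 10.0%, against 26.1%. The median deviations were -0.25 in sample 1 and 0.38 in sample 5, against 0.05 and -0.11 over all detected genes. In sample 1, 7 of 30 were 1.5-fold or more lower, where 13.4% of all detected genes were, and in sample 5, 6 of 30 were 1.5-fold or more higher, where 14.1% were. Without sample 4 only samples 1 and 5 were compared, and both counts are then the same comparison. They were 11 of 31, where 16.4% of all genes were past the threshold. Without sample 1 the count for sample 5 was 4 of 34, below the share of 12.96% over all genes. At 2-fold the counts were 1 of 30 in sample 1, where 4.51% of all genes were, and 0 of 30 in sample 5, where 5.45% were, so the larger differences were no more frequent than over all genes. In the opposite directions, 1 gene was higher in sample 1 (15.8% of all) and 1 lower in sample 5 (21% of all), Psme1 in both cases. In sample 4, 2 were higher (10.6% of all) and 0 lower (6.98% of all). A range over 2-fold was seen in 4 of 30, below the share of 25% over all genes, and these were genes of the cap. Most deviations were therefore under 1.5-fold. The plot of deviations shows it by group.

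**Figure D3:**
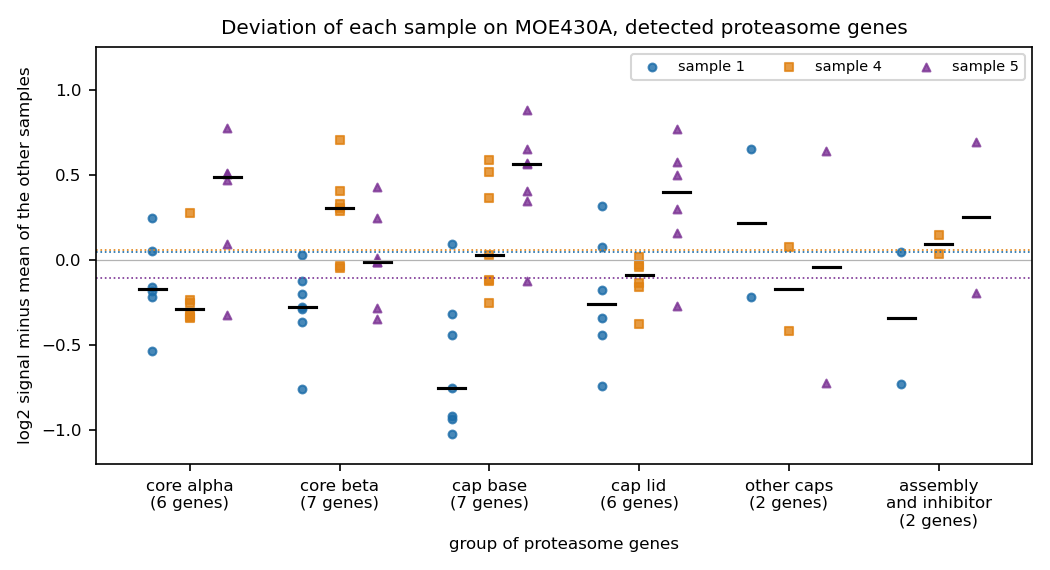
Deviation (log2 signal of a sample minus the mean of the others) on MOE430A, for the 30 detected proteasome genes by group, with the group median as a black bar and the median of all detected genes as a dotted line in the sample's colour. Sample 1 is lowest in the cap base, at a median of -0.75, while in the core beta group sample 5 sits near 0 and sample 4 at 0.30.

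The groups had different medians. In the beta group sample 5 had a median deviation of -0.01 and sample 4 of 0.30. In the alpha group sample 5 stood at 0.49 and sample 4 at -0.29. Over the 13 detected genes of the 19S cap, 10 were lowest in sample 1 and 9 highest in sample 5. Over the 13 of the 20S core both counts were 6, and over all detected genes the shares were 32.2% and 31.5%. Differences between the groups were not tested, since each has only a few genes in the same 3 samples. The Gapdh 3' to 5' ratio ran in the same order of samples, highest in sample 1 and lowest in sample 5, and the MOE430A array of sample 5 alone ran on station 2. Between samples 1 and 4, on the same station, the median of sample 1 was -0.14, against -0.01 over all genes. The summed fibroblast markers were lowest in sample 5, where most proteasome genes were highest. The part of these in the result was not tested.

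The arrays of MOE430B allow a second look at the same RNA. The 2 designs share 100 probe sets that are not controls, and 3 of them belong to proteasome genes. Psma1 read 1373, 3527 and 4306 on MOE430A and 4759, 9822 and 16522 on MOE430B, and Psmc5 read 4594, 12507 and 13037 on MOE430B. Both were lowest in sample 1 and highest in sample 5 on both designs. Psmb5 read 54302, 71523 and 85252 on MOE430B, with sample 5 highest, whereas sample 4 was highest on MOE430A. Of the 100 shared probe sets, 47 were highest in sample 5 on MOE430B and 39 on MOE430A. Of the same 100, 67 were lowest in sample 1 on MOE430B and 46 on MOE430A. The median deviation of sample 1 was -0.42 and -0.11. Sample 1 thus read lower on MOE430B over these probe sets at large. All MOE430B arrays ran on the same fluidics station.

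**Figure D4:**
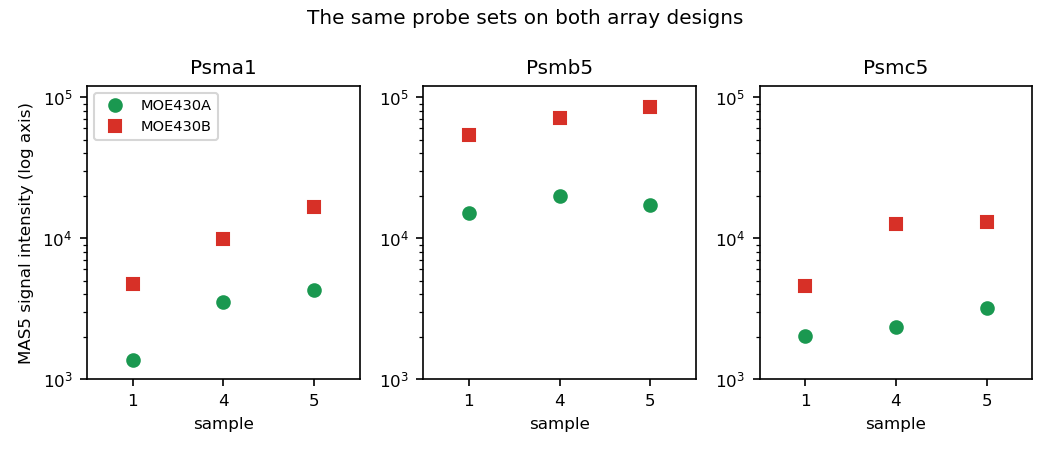
MAS5 signal intensity (log axis) of the 3 proteasome probe sets present on both designs, by sample, with MOE430A as circles and MOE430B as squares. Sample 1 is lowest in all 6 series, and sample 5 is highest in all but Psmb5 on MOE430A.

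The other MOE430B probe sets added little. By the main limit 1 gene was detected there, Psmb5, but that limit rested on 2 probe sets. By the second limit, set from 35 probe sets, 4 were: Psma1, Psmb5, Psmc5 and Psmd13. The Psmd13 probe set read 2861, 8552 and 9392, where that limit was 2798, 2678 and 3974 and so highest in sample 5. It was 3.28-fold higher in sample 5 than in sample 1. The 2 detected probe sets of Psmd13 on MOE430A were only 1.11-fold and 1.08-fold higher. On MOE430B all 4 genes were lowest in sample 1 and highest in sample 5. Of all genes past that limit, 45.2% were lowest in sample 1 and 45.2% highest in sample 5. With no filter, 8 of 15 genes were lowest in sample 1, against 33.6% of all genes, and 5 of 15 were highest in sample 5, against 32.6%, so sample 5 did not stand out there. The other 11 of the 15 did not pass the second limit on all 3 arrays.

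Probe sets of one gene often gave different calls. Of 28 genes with several probe sets, 4 had all detected, 14 had some and 10 had none, while 12 of the 19 genes with 1 probe set were detected. Of the 103 probe sets, 13 had names ending in _s_at or _x_at, which marks possible matches to several transcripts, and 4 of them represented their gene, for Psma6, Psmc2, Psmd11 and Psme4.

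Of the 6 motifs searched, on both strands, the ETS core had the widest gap in share between cap and core genes. The ETS core CCGGAAG, the letters bound by factors of the ETS family such as GABP, was in the window of 9 of 14 genes of the 19S cap, or 64.3%, and of 1 of 11 genes of the 20S core, Psma6, or 9.09%. The share was 9.93% of 27025 genes, 15.0% of the genes measured here and 24.1% of those detected. The CCAAT box was in 6 of 11 core genes and 4 of 14 cap genes, against 41.1% of all genes, and the TATA box TATAAA in 4 of 39 proteasome genes, against 15.7%. The median GC content of the windows was 60.5% for the cap, 55.8% for the core and 62.0% for detected genes. No matches of different motifs overlapped. To show where the ETS letters lie, the 100 bases before the start of 5 cap genes are given with the match in capitals, read on either strand: Psmc1 at chr12:100110102-100110201 (plus strand), Psmd2 at chr16:20651552-20651651 (plus), Psmd6 at chr14:14120946-14121045 (minus), Psmd11 at chr11:80428515-80428614 (plus) and Psmd12 at chr11:107479428-107479527 (plus).
Psmc1: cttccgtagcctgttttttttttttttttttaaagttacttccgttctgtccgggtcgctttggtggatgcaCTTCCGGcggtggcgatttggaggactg
Psmd2: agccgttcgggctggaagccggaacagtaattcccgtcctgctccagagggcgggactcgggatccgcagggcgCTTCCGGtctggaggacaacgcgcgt
Psmd6: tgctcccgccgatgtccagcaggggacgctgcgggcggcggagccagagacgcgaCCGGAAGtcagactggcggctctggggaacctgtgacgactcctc
Psmd11: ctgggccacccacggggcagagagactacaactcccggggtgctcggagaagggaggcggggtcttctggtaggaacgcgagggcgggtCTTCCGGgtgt
Psmd12: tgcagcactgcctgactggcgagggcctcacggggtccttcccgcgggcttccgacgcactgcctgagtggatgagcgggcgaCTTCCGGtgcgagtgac
The matches start 28, 26, 45, 11 and 17 bases before the start site, in that order of genes. Psmc2, Psmc6, Psmd4 and Psmd13 were the other cap genes with a match. The motif was found from RefSeq sequence alone, and no measurement here shows a factor bound to it.

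**Figure D5:**
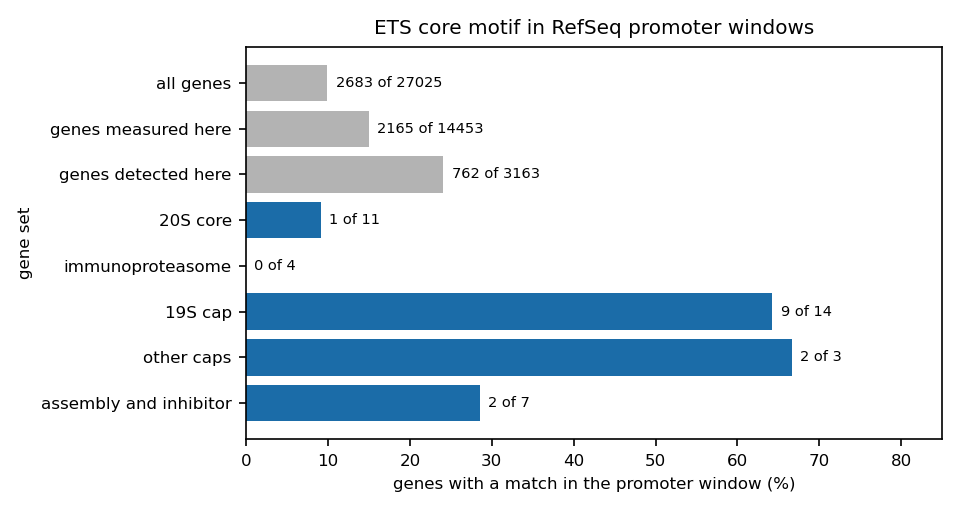
Share of genes with the ETS core motif in the promoter window (percent), for all genes and for genes measured and detected here (grey) and for groups of proteasome genes (blue), with the counts beside each bar. The 19S cap stands at 9 of 14 genes and the 20S core at 1 of 11.

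Partners of the proteasome outside the symbol family were taken from a list of 39 genes. Of these, 29 were measured by a probe set of their own and 17 detected, or 58.6%, against 21.1% of all genes of both designs together. Of factors that bind or mature the particle, 7 of 8 were detected. Adrm1 and Paaf1 were not among those measured. Pomp, the maturation factor of the core, read 3467, 3221 and 2688, and Sem1, a small lid subunit, read 14910, 16948 and 16485. Uchl5, a deubiquitinase of the cap, was the one not detected, with 761, 1003 and 2184.

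Regulators of proteasome genes had 3 of 5 detected. Nfe2l1 read 3900 (3899.9), 2971 and 3920 (3919.6), with sample 4 the lowest. Nfe2l2, a related factor of the antioxidant response, read 5767, 8700.4 and 8506 and was lowest in sample 1. Ngly1, the enzyme that removes sugars from Nfe2l1, read 2555, 2389 and 1813. Of the small Maf partners, Mafg read 2223, 1404 and 3983, below the limit in sample 4, and Mafk 976, 997 and 1152. None of the 5 regulators had the order 1, 4, 5 except Mafk.

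Ubiquitin shuttles had 4 of 7 measured genes detected. All 4 were lower in sample 1 than the mean of the others, as were 1538 of all 3282 detected genes of MOE430A. Vcp, the ATPase that extracts ubiquitylated proteins for the proteasome, read 14376, 27735 and 21435, and the shuttle gene Rad23b read 1522, 2513 and 4103. Not detected were the shuttle gene Ubqln4, at 1259.9, 1313 and 1207, and the Vcp cofactor genes Ufd1, at 2242, 1349 and 1696, and Nploc4, at 348, 982 and 1857. Antigen processing genes had 3 of 9 detected. The peptide transporter genes read 1002, 884 and 622 for Tap1, by 1 of its 4 probe sets, and 433, 361 and 512 for Tap2. Both were below the main limit in all samples, like their chromosomal neighbours Psmb8 and Psmb9. Tap1 passed the second limit in samples 1 and 4 (limits of 915 and 783), whereas Psmb8 and Psmb9 passed it in none. Detected were Tapbp, at 8262, 5806 and 1877, B2m, at 11973, 7199 and 17206, and the interferon-responsive factor Irf1, at 5052, 4566 and 3753.

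The genes that share only the symbol differed from each other. Psmc3ip read 254, 1209.7 and 1149 on MOE430A and 1334, 2636 and 3402 on MOE430B, lowest in sample 1 on both, and was not detected. Psme3ip1 read 4910.1, 3584 and 3729.8, highest in sample 1, and was detected.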

How the data were processed

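Total RNA prepared with an RNeasy kit was labelled with biotin and hybridised to Affymetrix arrays, per the labels. For each probe set the authors deposited a linear signal intensity. The submitters' processing notes name MAS5, with no version, and no detection calls were used. The trimmed mean (2% at each end) was 1501 on each MOE430A and 1500 (1500.2) on each MOE430B array, so each array was scaled singly and the designs were kept apart. The run settings of the arrays were used only to check sample, design and station. 0 columns were left unused.

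Signals were set to at least 1 before log2. Of 22690 probe sets on MOE430A, 20393 named 1 gene, 691 several and 1606 none, and of 22575 on MOE430B, 14674, 245 and 7656. The background list held 63 genes, with 78 probe sets on MOE430A and 2 on MOE430B, so a second list of 123 and 35 probe sets was added after seeing the data. Members and lists were chosen with earlier results of these data known. Named were all genes of the immunoproteasome, Psmb5 to Psmb7, all not detected, the 3 widest and the most even of each group, genes whose probe sets disagree or that are detected on both designs, and the first 2 of each partner list, all regulators and those that differ from their list's majority. Further members are given so that all are accounted for. One listed partner gene is not reported here. Where a gene had several probe sets, the one with the highest mean log2 signal stood for it, taken from the detected ones if any. In comparisons without a filter it was taken from all probe sets of the gene on that design. Promoters came from RefSeq tables on GRCm38.p6. They matched 39 of 47 genes. The code for deviations was tested on simulated data with known shifts, which is no test of the differences reported. Python 3.11.15, NumPy 2.4.6, pandas 2.3.3, SciPy 1.17.1 and Matplotlib 3.10.9 were used. The number of arrays limits the precision.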

Additional observations from a re-analysis of the deposited data

How the results depend on the processing

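The count of 30 detected proteasome genes ranged from 20 to 36 over 9 alternatives of limit, arrays, probe sets and samples, and that of immunoproteasome genes was 0 in all 9. With a sample left out the counts were 30 to 34 and 0, and of partners 17 to 20, where 17 were detected. Partners fell to 7 detected when most probe sets had to pass. On MOE430A the median deviation of sample 5 was between 0.24 and 0.49 over 11 alternatives (0.24 to 0.44 with a sample left out) and that of sample 1 between -0.44 and -0.14 (the same with a sample left out). Sample 4 ranged from -0.24 without sample 1 to 0.14 without sample 5. Calls 1.5-fold lower in sample 1, 7 of 30 against 13.4% of all genes, were 11 of 31 without sample 4 (16.4%) and 5 of 30 without sample 5 (12.3%). They were 16 of 46 without a filter (19.9%), 11 of 36 with a filter on the mean signal (16.98%, chosen after seeing the data) and 1 of 30 at 2-fold (4.51%). Calls higher in sample 5 were 6 of 30 against 14.1%, and 4 of 34 without sample 1 (12.96%). Without sample 4 these calls were the same 11 of 31 (16.4%) as for sample 1, since only samples 1 and 5 were compared. They were 12 of 46 without a filter (20.1%), 10 of 36 with the mean-signal filter (17.8%) and 0 of 30 at 2-fold (5.45%), so the counts without sample 1 and at 2-fold lay below the share of all genes, as did that for sample 1 at 2-fold. With arrays centred on their medians they were 12 of 30 (17.9%), and the median of all detected genes in sample 5 moved from -0.11 to 0.00 (0.0036). The median SD of 0.30 was 0.16 to 0.32 with a sample left out.

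On MOE430B, where the main limit left Psmb5 alone, the second limit gave medians of -1.45, 0.42 and 0.85 in samples 1, 4 and 5 over 4 genes. No filter gave 0.60 in sample 4 and -0.16 in sample 5 over 15 genes. With a sample left out the ranges were -0.65 to -0.40, -0.19 to 0.40 and 0.19 to 0.65. Causes of these changes were not tested. An earlier background list was not used here, so that alternative was not run. No paired analysis was possible because the 2 groups are 2 array designs of the same samples with different probe sets and no test between them. Calls near the limit depend on it most.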
